A study of Mus musculus with 6 samples.

Results

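The mouse tropomyosin genes Tpm1, Tpm2, Tpm3 and Tpm4 and the Tpm3-related sequence Tpm3-rs7 were examined in tumors of Eμ-Myc mice. They are 5 of the 38293 genes in the expression table and were found by name. Tpm3-rs7 was chosen by its RPKM values, which differed between the genotypes, so its genotype difference is given as a description with no test. The 2 miR-146a-deficient tumors (Myc transgenic, miR-146a-/-) both came from the thymus, of mice aged 11 and 10 weeks and labelled female. They were compared with 4 miR-146a-sufficient tumors (Myc transgenic, miR-146a+/+) of mice labelled male. Of these, sufficient replicates 1 and 2 came from neck nodes at 18 and 16 weeks, and replicates 3 and 4 from the thymus at 10 weeks. All mice were C57BL6 and carried the Eμ-Myc transgene, in which an immunoglobulin heavy chain enhancer drives Myc in B-lineage cells. Tumors were dispersed to single cells without sorting, so other cells of the tumor could contribute RNA. Genotype cannot be told apart from labelled sex, and tumor site is shared only in part.

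Tropomyosins are coiled-coil proteins that lie head to tail along the side of actin filaments. They set which motors and severing proteins can reach the filament, and in striated muscle they work with troponin to make contraction depend on calcium. Each gene gives several isoforms through alternative promoters and exons. Tpm3 and Tpm4 are the usual non-muscle genes of blood cells, whereas Tpm1 and Tpm2 give the main forms of smooth and striated muscle. A retrogene is a copy of a messenger RNA that was reverse transcribed and inserted elsewhere in the genome, and it therefore has no introns of its parent.

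Levels are in RPKM, the number of reads divided by gene length in kilobases and by library depth. Libraries were deep: the steps between low values gave an estimate of 59200000 and 41200000 reads in deficient replicates 1 and 2, against 25600000 to 69700000 reads over the sufficient tumors. The label of deficient replicate 2 was at odds with its RNA. The Y-linked RNA of Ddx3y reached 24.6 RPKM, against 17.9 to 23.0 RPKM in the sufficient tumors, although its mouse was labelled female. Deficient replicate 1 held 0.130 RPKM of Ddx3y and was listed at 1240070 RPKM of Xist, the RNA that silences an X chromosome in females. This single gene lifted the sum of its values to 1932926, against 692853 without it. Xist was also listed at 1819 RPKM in deficient replicate 2 and at 1585 to 2203 RPKM in the sufficient tumors, all of which held Ddx3y RNA. The Xist values are therefore not read as RNA levels, and why they are so high was not tested. Mir146, the gene of the deleted microRNA, is listed at 0 in all 6 tumors and does not check the genotype labels. Summed B-lineage markers were high in every tumor, at 1351 to 2231 RPKM in deficient tumors and 1326 to 2019 RPKM in sufficient tumors.

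Tpm3-rs7 lies on chr14:113314608-113316754 (GRCm38, plus strand) and is tagged as a retrogene in GENCODE M21. It has 1 exon of 2147 bases with a coding frame of 248 codons, and its 3′UTR is 1332 bases long. Its parent Tpm3 lies on chr3:90072649-90100902 (plus strand) and has 16 annotated transcripts. The closest of these, Tpm3-201, matched Tpm3-rs7 at 2089 of 2108 aligned positions (99.1%), with 13 base differences and 6 gap bases. The coding frames were identical at 741 of 744 bases (99.6%). The other tropomyosins were more distant: their closest coding frames were 74.9% (Tpm1), 72.2% (Tpm4) and 64.6% (Tpm2) identical to that of Tpm3-rs7.

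The coding differences are shown because they are the sites within the frame at which a read can tell the retrogene from its parent. They are G72A, G98A and G127A, written as the Tpm3 base, the position counted from the A of the start codon, and the Tpm3-rs7 base. Capitals mark the differing base.
Tpm3-rs7 at position 72, chr14:113314733-113314761, plus strand: caagctgatgatgcAgaggaaagggccga
Tpm3-201 at position 72, chr3:90079789-90079817, plus strand: caagctgatgatgcGgaggaaagggccga
Tpm3-rs7 at position 98, chr14:113314759-113314787, plus strand: cgagcgcctccagcAggaagtggagggag
Tpm3-201 at position 98, chr3:90079815-90079843, plus strand: cgagcgcctccagcGggaagtggagggag
Tpm3-rs7 at position 127, chr14:113314788-113314816, plus strand: aaaggcgggcccggAagcaggctgaagct
Tpm3-201 at position 127, spliced from exons within chr3:90079844-90086454, plus strand: aaaggcgggcccggGagcaggctgaagct
The last pair also shows the retrogene's structure, since the stretch is unbroken in the genome for Tpm3-rs7 and crosses an exon junction in Tpm3. The remaining 10 base differences and all of the gap bases fell in the 3′UTR.

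Reads were 100 bases long, so windows of this length show how far the genes can be separated. Of the 2048 windows of Tpm3-rs7, 1020 (49.8%) occur unchanged in a Tpm3 transcript. The share was 80.4% of windows wholly within the coding frame and 36.7% of windows wholly within the 3′UTR. From the side of the parent, 1020 of 2131 windows of Tpm3-201 (47.9%) occur in Tpm3-rs7. No window of Tpm3-rs7 occurred in a transcript of any of the other 55339 genes of the annotation. Tpm1, Tpm2 and Tpm4 shared no 100-base window with each other, with Tpm3 or with Tpm3-rs7. Counts of Tpm3 and Tpm3-rs7 are therefore uncertain to the degree that shared reads were dropped or placed in the wrong copy, and the part of this in the values below was not tested. Shared reads could not be looked at here, since the table holds 1 value per gene.

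**Figure D1:**
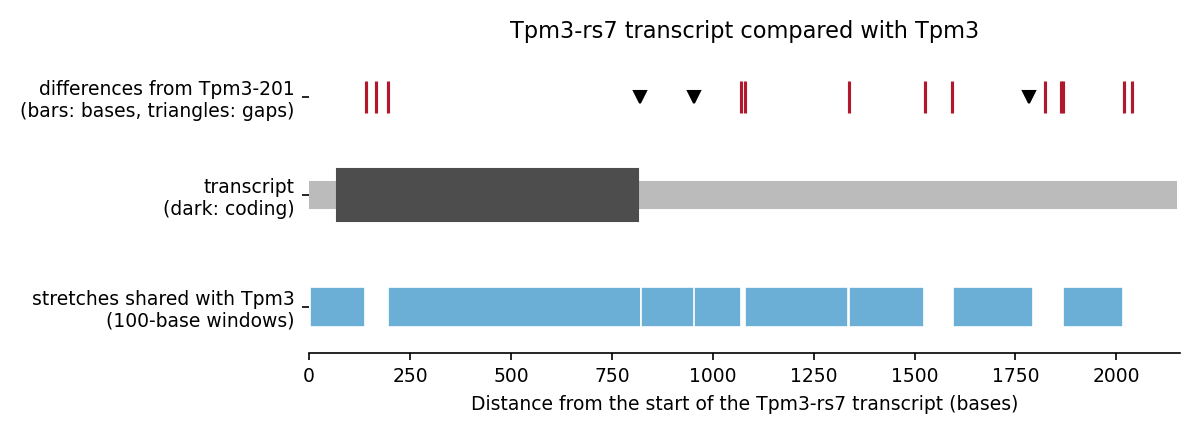
Map of the Tpm3-rs7 transcript (x axis: distance from its start in bases). Red bars are the 13 base differences from Tpm3-201, triangles are the gaps, the dark box is the coding frame, and blue boxes are stretches made of 100-base windows that also occur in Tpm3. The 3 coding differences sit near the start of the frame, and the longest stretch covered by shared windows spans 628 bases.

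Tpm3-rs7 was high in both deficient tumors and low in every sufficient tumor. It stood at 217 and 194 RPKM in the deficient tumors, against 13.9, 9.03, 8.69 and 11.3 RPKM in sufficient replicates 1 to 4. The groups did not overlap, as the choice of this gene implies, and the lowest deficient tumor lay far above the highest sufficient one. Means were 205 ± 15.9 RPKM (SD, n = 2) and 10.7 ± 2.41 RPKM (SD, n = 4), a ratio of 19.2 and a difference of 4.16 on the log2(RPKM + 1) scale. Among the 12751 genes tested, 9.15% had non-overlapping groups that were higher in deficient tumors, and 0.0549% were called higher. The values rest on many reads, an estimated 26052 and 16242 in the deficient tumors against 526 to 1278 in the sufficient tumors. By level, Tpm3-rs7 ranked 364 and 391 among all genes of the deficient tumors, and between 4469 and 5808 in the sufficient tumors.

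**Figure D2:**
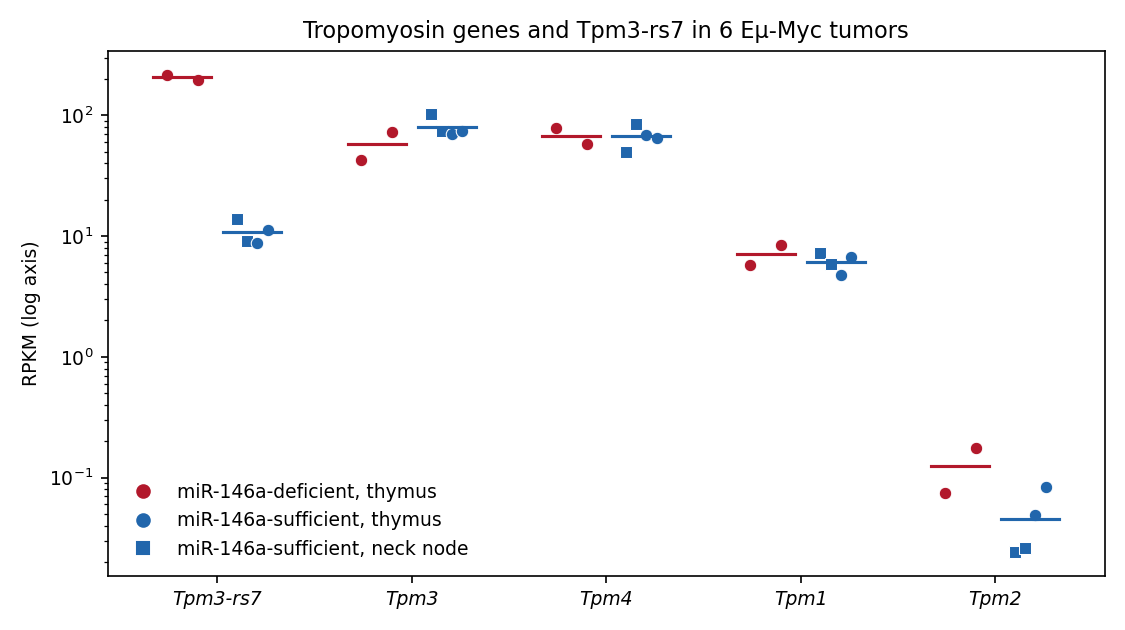
RPKM (log axis) of the 5 genes in each tumor, with deficient tumors on the left of each pair. Points are single tumors, squares mark neck nodes, and lines are group means. Tpm3-rs7 separates the genotypes (194 to 217 against 8.69 to 13.9 RPKM), and the other 4 genes overlap.

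The difference in Tpm3-rs7 was as large within one tumor site. Against the thymic sufficient tumors alone it was 4.24 on the log2(RPKM + 1) scale. It was 4.24 without deficient replicate 2, whose sex label is in doubt, which leaves the deficient tumor with 0.130 RPKM of Ddx3y. Without deficient replicate 1 it was 4.08. The deficient tumor left then held Ddx3y RNA (24.6 RPKM), as did all sufficient tumors (17.9 to 23.0 RPKM). Whether sex moves Tpm3-rs7 was not tested. Median-ratio scaling gave 3.99, and quantile normalization gave 4.12. All of these reuse the values by which Tpm3-rs7 was chosen, so they are a description and carry no separate support. Among sufficient tumors, a comparison that the choice of genes did not use, Tpm3-rs7 held 13.9 and 9.03 RPKM in neck nodes and 8.69 and 11.3 RPKM in the thymus. The sites overlapped, with a log2 difference of 0.17 (95% interval -0.56 to 0.89, limma adjusted p = 0.903).

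Tpm3, the parent gene, did not differ beyond the spread of the tumors. It held 42.3 and 72.6 RPKM in the deficient tumors, against 102, 73.6, 70.2 and 74.0 RPKM in the sufficient tumors. Deficient replicate 1 was the lowest of the 6 tumors and sufficient replicate 1 the highest, while deficient replicate 2 lay among the other sufficient tumors. Means were 57.4 ± 21.4 RPKM (SD, n = 2) and 80.0 ± 14.9 RPKM (SD, n = 4). The log2 difference was -0.50 (SE 0.27, 95% interval -1.12 to 0.12, limma adjusted p = 0.893), and it was -0.12 without deficient replicate 1 and -0.89 without deficient replicate 2. The interval covers a range from 0.459 to 1.08 times the sufficient level. An exact two-sided permutation test over the 15 splits of the tumors gave p = 0.133, where the smallest it can give is 0.0667. The median log2 difference over all genes tested was 0.13, and -0.01 after median-ratio scaling, under which the value of Tpm3 was -0.68.

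The balance between retrogene and parent was turned round in the deficient tumors. The ratio of Tpm3-rs7 to Tpm3 was 5.12 and 2.68 in the deficient tumors, against 0.136, 0.123, 0.124 and 0.152 in sufficient replicates 1 to 4. The sufficient ratios lay within a narrow band although Tpm3 itself covered 70.2 to 102 RPKM, and sufficient replicate 1 was highest and replicate 3 lowest for both genes. In the deficient tumors the tumor with more Tpm3-rs7 had less Tpm3. Since the ratio contains Tpm3-rs7, its separation of the genotypes is a description as well. The sum of both genes was 259 and 267 RPKM in deficient tumors, against 116, 82.6, 78.9 and 85.3 RPKM in sufficient tumors.

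**Figure D3:**
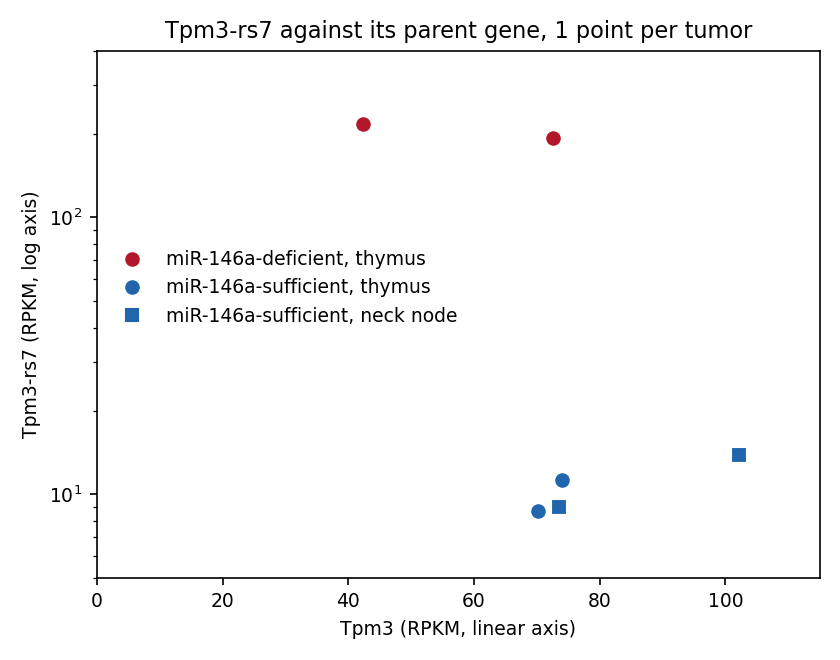
Tpm3-rs7 (RPKM, log axis) against Tpm3 (RPKM, linear axis), 1 point per tumor, deficient in red and sufficient in blue, with squares for neck nodes. The deficient tumors lie near the top at 217 and 194 RPKM of Tpm3-rs7, over Tpm3 levels of 42.3 and 72.6 RPKM.

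Tpm4, the other main tropomyosin of blood cells, did not differ beyond the spread of the tumors either. It held 77.6 and 58.1 RPKM in deficient tumors, against 49.7, 84.6, 68.9 and 65.0 RPKM in sufficient tumors. The deficient tumors lay inside the sufficient range, with sufficient replicate 1 lowest and replicate 2 highest. Means were 67.9 ± 13.8 RPKM (SD, n = 2) and 67.0 ± 14.3 RPKM (SD, n = 4). The log2 difference was 0.03 (SE 0.25, 95% interval -0.55 to 0.61, limma adjusted p = 0.987), and it changed sign, to -0.15, with median-ratio scaling. Changes between 0.682 and 1.52 times the sufficient level were within that interval. Tpm4 lies on chr8:72134975-72153142 (plus strand).

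Tpm1 was present at a far lower level than Tpm3 and Tpm4 and overlapped between the genotypes. Its values were 5.75 and 8.46 RPKM in deficient tumors, against 7.19, 5.84, 4.72 and 6.65 RPKM in sufficient tumors. Deficient replicate 2 was the highest of all 6, while deficient replicate 1 was lower than 3 of the 4 sufficient tumors. Means were 7.10 ± 1.91 RPKM (SD, n = 2) and 6.10 ± 1.08 RPKM (SD, n = 4), with a log2 difference of 0.18 (SE 0.26, 95% interval -0.41 to 0.77, limma adjusted p = 0.904). Without deficient replicate 2 the difference was -0.06. Tpm1 lies on chr9:67022590-67049406 (minus strand) and has 21 annotated transcripts, which the single value per gene does not separate.

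Tpm2, a gene best known from muscle, was close to the limit of detection in every tumor. It held 0.0746 and 0.176 RPKM in deficient tumors, against 0.0244, 0.0260, 0.0493 and 0.0842 RPKM in sufficient tumors. At an effective length of 3238 bases, the length that suited them best, all 6 values came out as whole reads within a relative misfit of 5.57e-06, which gives an estimated 14 and 23 reads in the deficient tumors, against 2, 6, 5 and 8 reads in the sufficient tumors. Both deficient tumors were at the upper end, but deficient replicate 1 lay below sufficient replicate 4. Tpm2 did not pass the filter of 0.5 RPKM in 2 tumors and has no limma value. The exact two-sided permutation test gave p = 0.133. Of the 5 genes, the other 4 passed the filter, and Tpm1, Tpm3 and Tpm4 were not called, against 0.0627% of all 12751 genes tested that were called in either direction. Tpm2 lies on chr4:43514711-43523765 (minus strand).

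The order of levels was the same in all 4 sufficient tumors only at its lower end. Per kilobase, Tpm3 and Tpm4 stood highest there, then Tpm3-rs7, then Tpm1, and Tpm2 last. Tpm3 and Tpm4 did not keep an order: the ratio of Tpm3 to Tpm4 was 2.05, 0.870, 1.02 and 1.14 in sufficient replicates 1 to 4, and it was 0.545 and 1.25 in the deficient tumors. In both deficient tumors Tpm3-rs7 stood first. The 4 tropomyosin genes other than Tpm3-rs7 summed to 126 and 139 RPKM in deficient tumors, against 159, 164, 144 and 146 RPKM in sufficient tumors.

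As shares of the summed RPKM of the 5 genes, Tpm3-rs7 made up 63.3% and 58.2% in the deficient tumors, against 5.22% to 8.04% in the sufficient tumors. Tpm3 made up 12.4% and 21.8% in deficient tumors, against 42.5% to 59.0% in sufficient tumors. Tpm4 made up 22.7% and 17.4% in deficient tumors, against 28.8% to 48.9% in sufficient tumors. In RPKM, Tpm4 overlapped between the genotypes, and Tpm3 in deficient replicate 1 lay below every sufficient tumor. Tpm1 made up 1.68% and 2.54% in deficient tumors, against 3.09% to 4.24% in sufficient tumors, although its RPKM overlapped between the genotypes. Since the sum contains Tpm3-rs7, which was chosen by its values, the shares of the other genes fall wherever it is high. The separation of the genotypes by these shares is therefore a description as well. The depth behind the RPKM values is known only as an estimate, so no counting interval is given for these shares.

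**Figure D4:**
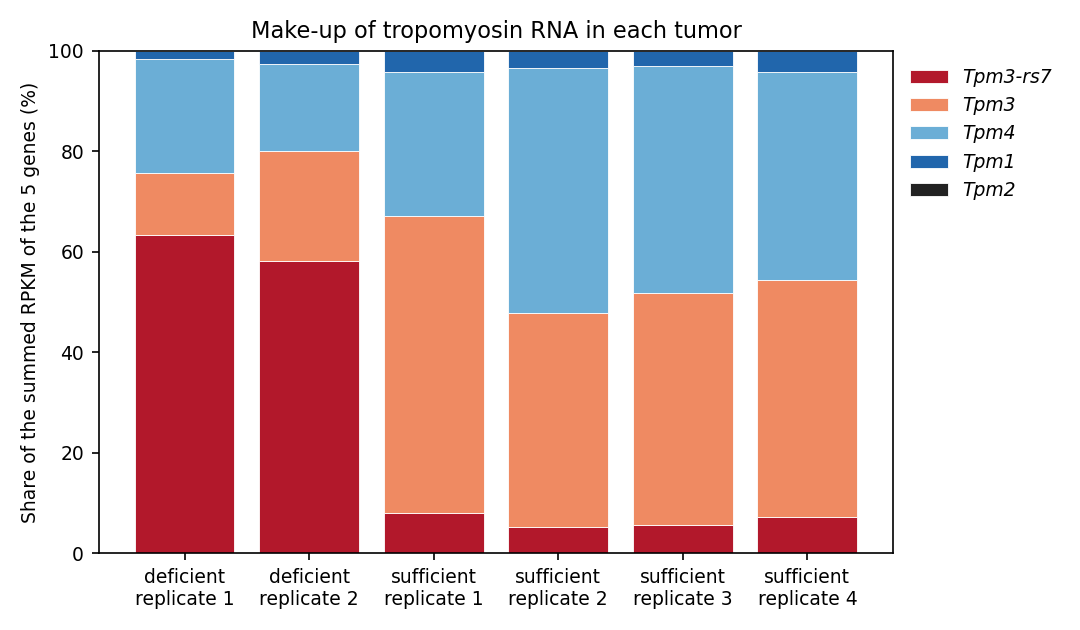
Share (%) of each gene in the summed RPKM of the 5 genes, 1 bar per tumor, deficient tumors on the left. Tpm3-rs7 takes 63.3% and 58.2% of the deficient bars and at most 8.04% of a sufficient bar, and Tpm2 is too low to be seen.

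Neck node and thymic sufficient tumors were compared to see whether tumor site moves these genes. Tpm3 held 102 and 73.6 RPKM in neck nodes, against 70.2 and 74.0 RPKM in the thymus, and the log2 difference was 0.26 (95% interval -0.36 to 0.89, limma adjusted p = 0.794). For Tpm4 it was -0.04 (95% interval -0.78 to 0.69, limma adjusted p = 0.977), and for Tpm1 it was 0.18 (95% interval -0.52 to 0.87, limma adjusted p = 0.885). The intervals are wide with 2 tumors a site, and each difference lay within the spread between tumors. The background of this comparison was 0.155% of 12255 genes called. Tumor age differs with site here (18 and 16 weeks against 10 weeks), and age and site cannot be told apart.

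MicroRNAs pair through bases 2 to 8, the seed, with sites in the 3′UTR of messenger RNAs, which are as a rule lowered by it. The sequence of miR-146a-5p (RefSeq, GRCm38.p6) is shown with its seed in capitals, beside the only match found among the tropomyosins, in the 3′UTR of Tpm1, where the capitals mark the complement of the seed.
miR-146a-5p, chr11:43374435-43374456, minus strand: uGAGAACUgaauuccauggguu
Tpm1 3′UTR, chr9:67022710-67022737, minus strand: ccccccttcccAGTTCTCcatatcaggg
The search was for AGTTCTC and GTTCTCA on the sense strand of the longest annotated 3′UTR of each gene, and the 2 motifs overlap by 6 letters. The match in Tpm1 starts at base 1766 of a 3′UTR of 1899 bases in transcript Tpm1-209. The 3′UTRs of Tpm2 (1210 bases), Tpm3 (1365), Tpm4 (1318) and Tpm3-rs7 (1332) held no match. Over all genes, 18.2% of 21022 longest 3′UTRs held one. For Tpm3-rs7 this says only that these letters are not in its annotated 3′UTR. Tpm1, which holds a match, had a log2 difference of 0.18 that did not pass the test, beside a median of 0.13 over all genes tested. It was 0.03 with median-ratio scaling and 0.01 with quantile normalization.

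Partners of tropomyosin on the actin filament were then read from a list of 51 genes, of which 49 were found in the table and 30 passed the filter. None of the 30 was called by limma in either direction, beside 0.0627% of all genes tested, so the lack of calls says little about the list. At an unadjusted p under 0.05, 2 (Tmod4 and Cfl2) were higher and 0 lower, against 2.88% and 0.737% of all genes tested. Tmod4 passed the filter through the deficient tumors alone, so its place in this count carries no support. A positive difference was seen for 20 of the 30 (66.7%), beside 67.6% of all genes tested, and the median log2 difference was 0.14, beside 0.13. After median-ratio scaling the median of the list was -0.03. It was 0.02 without sufficient replicate 3, 0.05 without sufficient replicate 4, 0.08 without deficient replicate 1 and 0.02 without a filter, and 0.28 within thymic tumors.

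The most abundant partners moved in both directions, and none passed the test. Cfl1 (cofilin, which severs filaments) held 1360 RPKM on average in deficient tumors and 1356 RPKM in sufficient tumors. Actb (cytoplasmic actin) averaged 624 and 657 RPKM in deficient and sufficient tumors, while Myl6, a myosin light chain, averaged 359 and 508 RPKM in deficient and sufficient tumors (log2 difference -0.52, limma adjusted p = 0.893). Pfn1 (profilin, which feeds actin to growing filaments) averaged 252 RPKM in deficient tumors and 209 RPKM in sufficient tumors. Among less abundant partners, Myh9 (the heavy chain of nonmuscle myosin II) averaged 41.3 RPKM in deficient tumors and 40.1 RPKM in sufficient tumors. Tmod3, a tropomodulin that caps the slow-growing filament end together with tropomyosin, averaged 34.2 RPKM in deficient tumors and 33.0 RPKM in sufficient tumors. Tagln2 and Cnn3, which bind along the filament as tropomyosin does, averaged 132 and 53.3 RPKM in deficient tumors, against 122 and 47.6 RPKM in sufficient tumors. The troponin genes were low: 3 of 8 passed the filter, and the highest of them, Tnni2, averaged 6.47 and 5.42 RPKM in deficient and sufficient tumors.

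The pair at the upper end of the list were Tmod4 and Cfl2, both best known from muscle. Tmod4 held 1.27 and 1.61 RPKM in deficient tumors, against 0.212, 0.177, 0.0759 and 0.295 RPKM in sufficient tumors. It passed the filter through the deficient tumors alone, so its log2 difference of 1.04 is given as a description. Cfl2, the muscle cofilin, held 8.96 and 17.7 RPKM in deficient tumors, against 6.75, 8.42, 5.46 and 8.45 RPKM in sufficient tumors (log2 difference 0.74, limma adjusted p = 0.893).

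**Figure D5:**
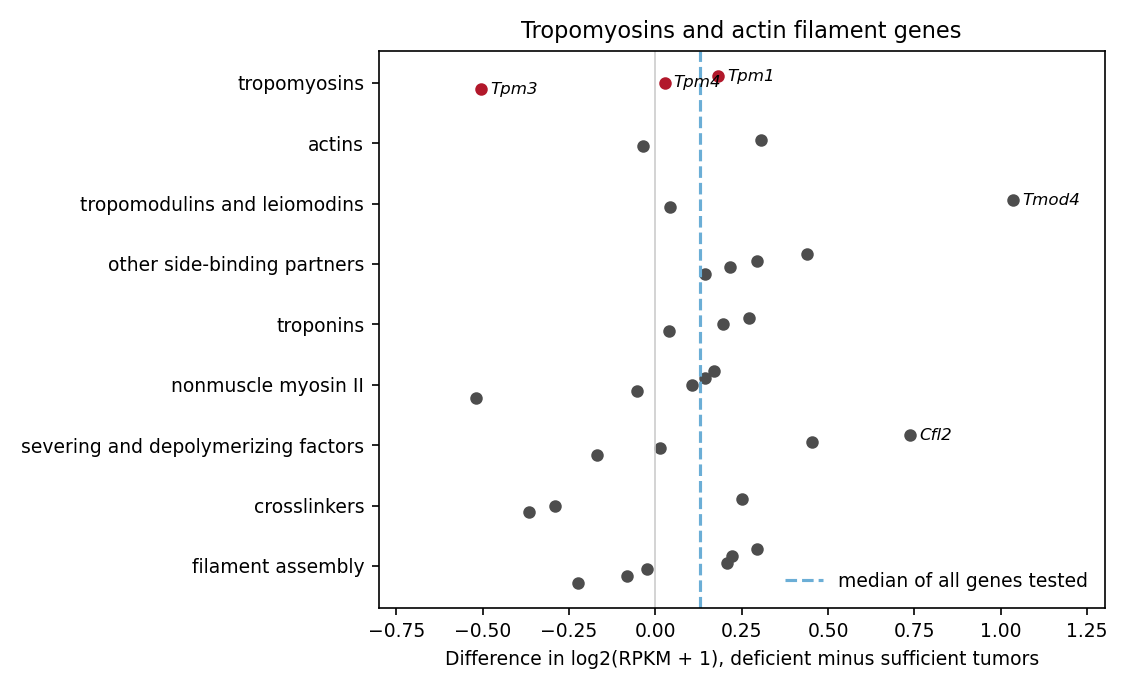
Differences in log2(RPKM + 1), deficient minus sufficient tumors, of the 3 tropomyosins that were tested (red) and the tested genes of the actin filament list (grey), 1 point per gene, with 1 gene of the list not shown. The dashed line is the median of all genes tested (0.13), and the highest point is Tmod4 (1.04), with none of the genes called.

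Cells that express muscle or stromal tropomyosins were traced by their markers. All 5 smooth muscle and pericyte markers (Myh11, Des, Rgs5, Pdgfrb, Cspg4) were under 0.5 RPKM in every tumor, and so were 4 of the 5 skeletal muscle markers (Ckm, Myh4, Mb and Ttn). The fifth, Mylpf, passed the filter, and the skeletal muscle markers summed to 4.47 and 1.85 RPKM in deficient tumors, against 1.79 to 4.42 RPKM in sufficient tumors. Summed fibroblast markers reached 8.69 and 20.6 RPKM in the deficient tumors, against 3.17 to 12.8 RPKM in the sufficient tumors. The 3 tumors with the highest Tpm2, namely deficient replicates 2 and 1 and sufficient replicate 4, were also the 3 with the highest fibroblast sums. This was not particular to fibroblasts, since the same 3 tumors had the highest endothelial, macrophage and platelet sums. Summed endothelial markers were 23.5, 15.1 and 22.7 RPKM in these tumors in that order, against 9.97 to 14.2 RPKM in the others. This sum is mostly Pecam1, since the other 3 of the 4 markers (Cdh5, Kdr and Tek) were under 0.5 RPKM in every tumor. Summed macrophage markers (4 of the 5 listed were found) were higher in the deficient tumors without overlap, at 38.2 and 53.5 RPKM against 14.2 to 24.8 RPKM in the sufficient tumors. Of all genes tested, 9.15% were higher in the deficient tumors without overlap. Summed platelet markers, read because platelets carry tropomyosin, were 3.53 and 5.58 RPKM in deficient tumors, against 0.443 to 8.28 RPKM in sufficient tumors, and overlapped. Of these 4 markers only Pf4 reached 0.5 RPKM in any tumor, while Ppbp, Itga2b and Gp9 did not. Neither the endothelial nor the platelet sum therefore traces its cell type by more than 1 gene. The part of these cells in the values of the tropomyosins was not tested. In bulk tumors, more cells of a type and more RNA per cell cannot be told apart.

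Other copied genes were read for comparison. The only further gene named after a tropomyosin, the processed pseudogene Tpm3-rs2, was listed at 0 and 0.120 RPKM in deficient tumors, against 0.158, 0, 0 and 0 RPKM in sufficient tumors. Of 872 other genes named as related sequences or pseudogenes, 208 passed the filter. None of these was called by limma, beside 0.0627% of all genes tested. At an unadjusted p under 0.05, 1 was higher and 3 were lower, beside 2.88% and 0.737% of all genes tested. A positive difference was seen for 56 of 208 (26.9%), beside 67.6% of all genes. Their median log2 difference was -0.18, and it stayed below 0 with median-ratio scaling (-0.30) and quantile normalization (-0.27). It was -0.03 without deficient replicate 2, -0.33 without deficient replicate 1, -0.08 without sufficient replicate 3, -0.04 without a filter and -0.06 with the replicate block, and the cause was not tested.

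Among 67 other genes that GENCODE tags as retrogenes, a list added after the data were seen, 22 passed the filter and 1 was called. This was Gm9008, with 5.58 and 6.09 RPKM in deficient tumors, against 0.0922, 0.132, 0.0864 and 0 RPKM in sufficient tumors. It passed the filter through the deficient tumors alone, so its call carries no support and is a description, and the background was 0.0627% of all genes called. The median log2 difference over the 22 was 0.03, beside 0.13 over all genes, and 12 of them (54.5%) had a positive difference, beside 67.6%.

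The neighbours of Tpm3-rs7 could be read only in part. Within 1 Mb the annotation holds 9 genes, all processed pseudogenes, and 2 of them were in the table. Gm4822 was listed at 0 in all tumors, and Gm4487 was at 0 in all but sufficient replicate 4 (0.114 RPKM). The nearest genes that passed the filter were Gm10076, 7.63 Mb before Tpm3-rs7, with a log2 difference of -0.29 (limma adjusted p = 0.911), and AC108833.1, 4.79 Mb after it, with 0.10 (limma adjusted p = 0.968). Neither differed beyond the spread between tumors.

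Genes with the most similar pattern were ranked by Pearson's r of log2(RPKM + 1) over the 6 tumors, as a description. For Tpm3-rs7 they were Dmwd (0.999), Tmx2 (0.996), Cacna1h (0.995), Gm9008 (0.991) and Sptlc1 (0.990). With 2 high and 4 low tumors, such an r mostly says that a gene separated the same tumors. The size of the step differed widely: Tmx2, a thioredoxin-related membrane protein, held 17.5 and 17.6 RPKM in deficient tumors against 12.7 to 13.5 RPKM in sufficient tumors. Cacna1h, a T-type calcium channel, held 1.27 and 1.47 RPKM in deficient tumors against 0.0201 to 0.120 RPKM in sufficient tumors.

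The other tropomyosins had their own nearest genes. For Tpm3 these were Gkap1 (0.962), Angptl4 (0.952) and Gm12070 (0.947), for Tpm4 Fhit (0.983), Zfp330 (0.980) and Tpmt (0.977), and for Tpm1 Mtap7d1 (0.997), Gna13 (0.996) and Appbp2 (0.993). No gene was shared between the lists. Among the members themselves, r was -0.66 between Tpm3 and Tpm4, 0.37 between Tpm1 and Tpm3, -0.63 between Tpm1 and Tpm4, and -0.61 between Tpm3 and Tpm3-rs7. All of these rest on the same 6 tumors and carry no test.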

How the data were processed

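RNA of 6 Eμ-Myc tumors was analysed, 2 miR-146a-deficient and 4 miR-146a-sufficient. Per the labels and the study's methods, the authors sequenced single-end 100-base reads with 2 technical replicates per tumor, aligned them to GRCm38 (mm10) with STAR 2.3.0, used HTSeq 0.5.4p3 to count the reads of each Ensembl gene and tested with DESeq (1.12.1 in the labels, while the study's methods name another version). How reads with several alignments were treated is not given in the sources used here. The deposited table holds RPKM values made by the authors, 1 per gene and tumor. Whole counts could not be rebuilt across the table (estimates are given for Tpm3-rs7 and Tpm2), because the runs of a tumor were combined with different weights, and no count test was run. Values of low single-exon genes, multiplied by gene length less 99 bases, lay on steps of these weights (within 0.5%) for 61.8% to 70.8% of values, which gave the estimated reads. These assume that a value is the mean of the runs.

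The 5 genes were compared as log2(RPKM + 1) with limma 3.58.1 in R 4.3.3 (trend, Benjamini-Hochberg over all genes tested, threshold 0.05). Genes with at least 0.5 RPKM in at least 2 tumors entered, which left 12751 of 38293. Differences on this scale understate the change of low genes. The members and the gene lists were chosen with earlier results of these data known. Named genes are the 5 members, genes named after a tropomyosin, the most abundant or called genes of the actin filament list, the nearest genes by r, genes within 1 Mb of Tpm3-rs7 and called related sequences or pseudogenes. Tmod4, Cfl2 and Gm9008 as a retrogene were picked after their values were seen. Of the actin filament list, 1 gene counts in its totals but is not reported here. Exact permutation tests used Python 3.11.15 and counted splits with an absolute difference as large. Sequences were compared with Biopython 1.88, gene models and transcripts came from GENCODE M21, and the microRNA from RefSeq (GRCm38.p6). The fit was tested on simulated data. Nothing in the labels says that tumors of a group share a mouse or a batch, so p-values measure the spread between these tumors. Alternatives changed the pseudocount, filter, scaling, trend, tumor site, replicate block and the tumors included.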

Additional observations from a re-analysis of the deposited data

Results flagged for a closer look

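Tpm3 in the sufficient tumors was flagged because 1 tumor stood apart from the others. Sufficient replicate 1, a neck node tumor, held 102 RPKM, and the other 3 held 70.2 to 74.0 RPKM. Its gap to the nearest tumor was 0.879 of the range of the group, above Dixon's 95% critical value for 4 samples. The same tumor had the lowest Tpm4 of all 6, at 49.7 RPKM, and the highest Tpm3-rs7 of the sufficient tumors, at 13.9 RPKM. Of the measures examined this way it was the only one flagged, and chance flags about 1 in 20 groups.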

How the results depend on the processing

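None of Tpm1, Tpm3, Tpm4 and the actin filament list was called under any alternative that was run, and Tpm3 stayed below 0 in all 16. Calls were rare over all genes too, at 0.0627% of genes tested with the main settings. Leaving out 1 tumor at a time gave -0.89 to -0.12 for Tpm3, -0.06 to 0.43 for Tpm1, -0.18 to 0.23 for Tpm4 and 4.07 to 4.28 for Tpm3-rs7 (log2 differences, deficient minus sufficient). Tpm1 changed sign without deficient replicate 2 (-0.060). Tpm4 changed sign with median-ratio scaling (-0.15) and quantile normalization (-0.034), and without deficient replicate 1 (-0.18) or sufficient replicate 1 (-0.11). Tpm3-rs7 was 3.75 with a pseudocount of 5, which shrinks low values by construction. In neck node against thymus, sign changes came without sufficient replicate 1 for Tpm4 (0.33) and Tpm3-rs7 (-0.12), and without sufficient replicate 3 for Tpm1 (-0.032) and Tpm3-rs7 (-0.0050). The ranges over left-out tumors were -0.03 to 0.39 (Tpm1), 0.03 to 0.50 (Tpm3), -0.42 to 0.33 (Tpm4) and -0.12 to 0.45 (Tpm3-rs7). The cause of these changes was not tested.

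Over all genes, 8 were called by genotype, 3 either with a site covariate or within the thymus, and from 4 to 9 when a single tumor was left out (4 without sufficient replicate 3). By site, 19 were called, 11 with quantile normalization, 11 to 67 with 1 tumor left out (67 without sufficient replicate 2) and 0 without a filter (limma, 1388 at an unadjusted p under 0.05). The replicate numbers are shared by 2 pairs only, and same-numbered tumors deviated together with r of 0.02 and 0.21, so the numbers were not taken as pairs. With the replicate block, 1 gene was called by genotype, and 0 of the 209 related sequences and pseudogenes with Tpm3-rs7 among them (3 at an unadjusted p under 0.05), against 1 without the block. That 1 is Tpm3-rs7, which was chosen by these values, so neither count is read as a test of it. Its difference under the block was 4.08, with -0.64 for Tpm3, 0.05 for Tpm4, 0.09 for Tpm1 and -0.04 for the median of the actin filament list. With 2 deficient tumors, the intervals for Tpm3, Tpm4 and Tpm1 are wide. Changes inside them remain compatible with the values, so the lack of a call does not show that these genes are unchanged. The intervals are not a limit of detection. They are not adjusted for the number of genes tested, whereas the calls are, so a gene whose interval leaves out 0 can also go uncalled.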
